A study of Homo sapiens with 12 samples.

Results

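ATF3 siRNA was compared with a negative control siRNA in N/TERT-2G cells, an immortalised line of human skin keratinocytes. The comparison rests on 6 of the 12 bulk RNA libraries of the series, 3 with ATF3 siRNA and 3 with the control siRNA, which were chosen by their labels and by the matching columns of the gene count table. The other 6 libraries, 3 with APOE siRNA and 3 with CXCL14 siRNA, entered the same model and served to ask where the ATF3 siRNA libraries differed from cells that received another siRNA. All 4 groups came from the same line in keratinocyte serum-free medium and were transfected below full confluence with 100 pmol of siRNA and 5 μl of Lipofectamine, a lipid reagent, per well of a 6-well plate, with fresh medium after 6 h. Messenger RNA was pulled down on poly-T beads. The study is about lichen sclerosus of the vulva, a chronic skin inflammation, and this comparison asks which transcripts differ when a keratinocyte line receives siRNA against ATF3. The siRNA sequences, the time from transfection to lysis and whether replicates were separate cultures are not stated, so p-values reflect only how far these libraries spread, and that spread may be technical.

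ATF3 is a basic leucine zipper transcription factor of the ATF/CREB family that stress and growth signals induce quickly. It pairs with itself or with JUN proteins and binds the cyclic AMP response element TGACGTCA and the AP-1 site TGACTCA, and it is best known as a repressor, although it also activates genes. In epidermis, AP-1 proteins control genes of keratinocyte differentiation. A differentiating keratinocyte stops dividing, changes its keratins, loosens its hold on the basement membrane and builds a cornified envelope, a shell of involucrin, small proline-rich proteins and other precursors that transglutaminases crosslink under the plasma membrane.

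Total counts were 17191610 to 22246755 per library with ATF3 siRNA and 16225691 to 16362761 with control siRNA. Transcripts of the mitochondrial genome made up 1.90 to 2.02% of ATF3 siRNA libraries and 2.16 to 2.66% in control libraries. Of 58735 genes in the table, 14920 passed the filter on low counts, and these held 99.9% of the counts. Levels are given in CPM, counts relative to the TMM-scaled library total, which are not corrected for gene length. Changes are log2 fold changes of ATF3 siRNA over control ± SE from edgeR's quasi-likelihood test, and rises and falls are genes with a Benjamini-Hochberg adjusted p under 0.05 over all 14920 genes. The summed level of 10 basal keratinocyte markers was 32000 to 34880 CPM with ATF3 siRNA and 32250 to 34770 CPM with control siRNA, most of it KRT5 and KRT14. Of these 10 markers, 4 fell (COL17A1, ITGA6, CDH3 and DST) and 2 rose (KRT14 and KRT15), and KRT14 was not called without ATF3 siRNA library 3 or control siRNA library 1 or 2. Among markers of other skin cells, TYR of melanocytes, PTPRC, CD3E, LYZ, MS4A1 and NKG7 of immune cells and COL1A2, COL3A1, POSTN and DPT of fibroblasts had 0 counts in all 6 libraries. COL1A1 had 704, 592 and 673 counts with ATF3 siRNA, against 414, 453 and 548 with control siRNA, FAP had 396, 293 and 226, against 411, 334 and 287, and the monocyte marker CD14 had 55, 63 and 82, against 31, 35 and 46. These are raw counts, not scaled to the library totals, which were higher with ATF3 siRNA. COL1A1 and CD14 (0.67) were not called in the main test. CD14 rose without ATF3 siRNA library 1 or control siRNA library 3, and 1 fibroblast marker rose without control siRNA library 3. FAP fell (-0.37, edgeR adjusted p = 0.0471) and was not called without ATF3 siRNA library 2 or 3 or control siRNA library 1 or 2 (adjusted p = 0.0859 to 0.251). The part of these cells in the results was not tested. The summed fibroblast list of 11 genes was 50.0 to 54.4 CPM with ATF3 siRNA and 48.1 to 52.0 CPM with control siRNA, the 13 immune genes 3.54 to 5.62 and 2.36 to 3.65 CPM, the 8 melanocyte genes 3.37 to 3.99 and 3.44 to 4.19 CPM, and the 7 endothelial genes 2.30 to 3.43 and 2.36 to 2.73 CPM, each in the same order of groups. The 7 genes of Merkel cells and simple epithelium summed to 590 to 694 CPM with ATF3 siRNA and 762 to 790 CPM with control siRNA, nearly all of it KRT8 and KRT18, and ATOH1 had 0 counts.

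The targeted transcript was lower in the ATF3 siRNA libraries. ATF3 (ENSG00000162772, hg38 chromosome 1, 212565334 to 212620777, plus strand) had 12.02, 12.5 and 11.5 CPM with ATF3 siRNA, against 43.0, 43.0 and 40.5 CPM with control siRNA. The groups did not overlap, and the mean with ATF3 siRNA was 28.5% of the control mean (-1.81 ± 0.08, edgeR adjusted p = 1.37e-09). An exact two-sided permutation test gave p = 0.1, the smallest that 3 against 3 libraries allow. The level with ATF3 siRNA was also below those with APOE siRNA (41.9 ± 2.98 CPM) and CXCL14 siRNA (68.3 ± 3.86 CPM; SD, n = 3 each).

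Across all genes, 1678 of 14920 rose (11.2%) and 1363 fell (9.14%) with ATF3 siRNA, and the median log2 fold change over all tested genes was 0.0032. Large changes were mostly rises: 203 genes rose at least 2-fold (1.36%) and 72 fell at least 2-fold (0.483%). The CPM ranges of the 3 and 3 libraries did not overlap for 5249 genes (35.2%). Rises made up 55.2% of the calls with TMM scaling and 44% with library size alone. Without control siRNA library 1, 1057 genes rose and 859 fell.

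**Figure D1:**
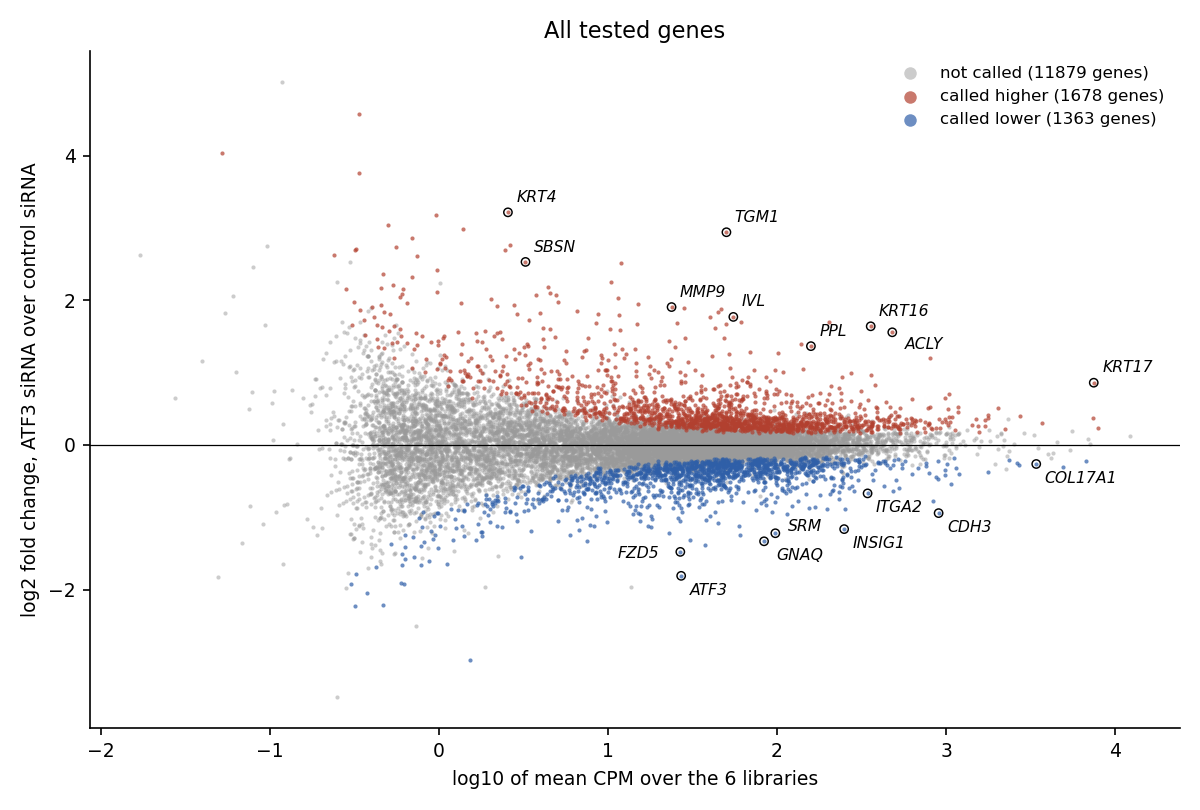
Each point is a tested gene, placed by log10 of its mean CPM over the 6 libraries (horizontal axis) and its log2 fold change, ATF3 siRNA over control siRNA (vertical axis). Red points are the 1678 genes called higher and blue points the 1363 called lower at an edgeR adjusted p under 0.05. Circles mark genes described in the text and FZD5, which the text does not describe. Envelope and keratin genes such as TGM1, IVL and KRT16 lie above the line and CDH3, INSIG1 and ATF3 below it.

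Genes of the cornified envelope moved upward. Of 33 genes listed as envelope precursors, 20 were tested. Of these 20, 16 rose and none fell with ATF3 siRNA, 14 of them at least 2-fold. The median log2 fold change was 1.31, and the share called higher among all genes was 11.2%. A gene high in 1 group alone could pass the filter on low counts, so the share called depends on the filter. With no filter 17 of 32 rose, with only the 6 libraries compared 15 of 17 rose, and none fell in either. The precursors lie mostly in the epidermal differentiation complex on chromosome 1 (chr1:151982915-153631360, hg38), where 30 of 63 protein-coding genes were tested. Of these 30, 19 rose and 1 fell, 17 of the rises being at least 2-fold. Bulk RNA cannot tell more transcript per cell from more cells that carry it.

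IVL, which encodes involucrin, an early crosslinked scaffold of the envelope, had 73.8, 86.8 and 95.4 CPM with ATF3 siRNA, against 21.6, 25.5 and 27.8 CPM with control siRNA (1.77 ± 0.11, edgeR adjusted p = 4.03e-08). SPRR1A, a small proline-rich precursor, had 15.4, 18.6 and 21.3 CPM with ATF3 siRNA, against 4.17, 4.01 and 5.27 CPM with control siRNA (2.04 ± 0.17, edgeR adjusted p = 6.22e-07). SPRR2A had 14.6, 15.01 and 17.2 CPM with ATF3 siRNA, against 7.01, 6.63 and 5.83 CPM with control siRNA (1.26 ± 0.13, edgeR adjusted p = 4.67e-06). In these 3 genes every ATF3 siRNA library lay above every control library. Off chromosome 1, SBSN, the secreted suprabasin, had 5.94, 5.57 and 5.14 CPM with ATF3 siRNA, against 0.967, 1.03 and 0.868 CPM with control siRNA (2.53 ± 0.22, edgeR adjusted p = 1.14e-06). Its neighbour on chromosome 19, KRTDAP, a keratinocyte differentiation-associated secreted protein, had 4.05, 4.22 and 4.54 CPM with ATF3 siRNA, against 0.907, 0.851 and 0.186 CPM with control siRNA (2.70 ± 0.30, edgeR adjusted p = 1.11e-05). Their promoters are printed here because all 5 genes rose and each window holds the AP-1 site TGACTCA, which ATF3 is known to bind with JUN partners. Being picked for both, they do not show how common the site is among envelope genes. TGM1, PPL, SPRR2D and SPRR2E also rose at least 2-fold and were not among the genes found to hold it. Each window runs from 250 bases before to 50 after the RefSeq transcription start on GRCh38.p14, 5′ to 3′ on the gene's strand, and capitals mark the AP-1 site, which reads TGAGTCA where it lies on the other strand.
IVL (chr1:152908296-152908595, plus strand): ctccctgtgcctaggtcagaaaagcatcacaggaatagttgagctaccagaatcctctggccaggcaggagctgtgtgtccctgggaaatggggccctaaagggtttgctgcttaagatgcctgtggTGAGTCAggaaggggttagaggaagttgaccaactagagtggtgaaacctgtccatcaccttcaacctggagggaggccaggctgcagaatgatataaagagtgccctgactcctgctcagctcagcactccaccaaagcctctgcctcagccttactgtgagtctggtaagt
SPRR1A (chr1:152983831-152984130, plus strand): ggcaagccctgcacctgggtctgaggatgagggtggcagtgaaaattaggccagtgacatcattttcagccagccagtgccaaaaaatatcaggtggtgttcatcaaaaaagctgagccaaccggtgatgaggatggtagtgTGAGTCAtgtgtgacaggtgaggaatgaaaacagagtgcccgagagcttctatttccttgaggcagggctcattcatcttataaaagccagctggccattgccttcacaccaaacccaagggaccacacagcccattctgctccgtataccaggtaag
SPRR2A (chr1:153057463-153057762, minus strand): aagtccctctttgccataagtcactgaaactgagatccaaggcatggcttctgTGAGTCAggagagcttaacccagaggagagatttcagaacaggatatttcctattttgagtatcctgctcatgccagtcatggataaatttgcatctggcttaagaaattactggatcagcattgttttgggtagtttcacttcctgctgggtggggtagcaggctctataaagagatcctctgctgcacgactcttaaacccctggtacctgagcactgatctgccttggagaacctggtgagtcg
SBSN (chr19:35528262-35528561, minus strand): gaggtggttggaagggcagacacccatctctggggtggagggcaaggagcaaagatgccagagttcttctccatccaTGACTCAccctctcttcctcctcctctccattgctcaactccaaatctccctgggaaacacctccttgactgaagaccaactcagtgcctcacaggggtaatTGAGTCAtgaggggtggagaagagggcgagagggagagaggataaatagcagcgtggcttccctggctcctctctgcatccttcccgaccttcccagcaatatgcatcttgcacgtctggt
KRTDAP (chr19:35490415-35490714, minus strand): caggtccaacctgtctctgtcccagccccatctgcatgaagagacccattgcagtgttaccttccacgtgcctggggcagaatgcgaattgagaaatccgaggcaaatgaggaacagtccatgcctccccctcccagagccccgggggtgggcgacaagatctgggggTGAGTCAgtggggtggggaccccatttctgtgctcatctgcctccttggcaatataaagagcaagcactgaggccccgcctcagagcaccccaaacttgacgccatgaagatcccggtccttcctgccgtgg

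The site begins 123 bases before the start in IVL, 108 in SPRR1A, 197 in SPRR2A and 82 in KRTDAP, and SBSN holds 2, at 173 and 71 bases before it. Both strands were searched for TGACTCA and for TGACGTCA, which cannot overlap as the same match. TGACTCA was found for 20 of 128 genes (15.6%) that rose at least 2-fold and have a RefSeq promoter, for 5 of 49 (10.2%) that fell at least 2-fold, for 84 of 1283 (6.55%) of all that rose and for 69 of 1080 (6.39%) of all that fell. It was found for 399 of 8535 genes (4.67%) that were not called, for 552 of 10898 (5.07%) of all tested genes with a promoter and for 1651 of 27305 (6.05%) of all genes in the table. Per window, 4.95% of all 35116 hold it. A gene with several starts has several windows, and among genes with 1 start the site was found for 14 of 103 (13.6%) that rose at least 2-fold, for 2 of 36 (5.56%) that fell at least 2-fold, and for 5.03% of all that rose, 3.07% of all that fell and 3.04% of those not called. TGACGTCA was found for 1 of 128 genes (0.781%) that rose at least 2-fold, for 50 of 1283 (3.9%) that rose, for 46 of 1080 (4.26%) that fell and for 408 of 10898 (3.74%) of all tested genes with a promoter, while 2.25% of all genes in the table and 1.85% of all windows hold it. These are shares of letters in a window, not measured binding. Of the 20 genes with TGACTCA that rose at least 2-fold, IVL, SPRR1A, SPRR1B, SPRR2A and SPRR3 lie in the epidermal differentiation complex. KRTDAP and SBSN, also among the 20, are neighbours, so the 20 are not all separate cases.

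Other genes of the envelope rose too, and 4 of the 20 genes on the precursor list were not called by edgeR. They were HRNR (0.62, adjusted p = 0.405), CRNN (1.03, adjusted p = 0.068), DSC1 (-0.81, adjusted p = 0.442) and CASP14 (0.71, adjusted p = 0.423). The list was drawn broadly, as DSC1 encodes a desmosomal cadherin and CASP14 a protease, and neither is itself a crosslinked precursor. SPRR1B reached 93.8 ± 13.8 CPM with ATF3 siRNA, against 28.97 ± 5.21 CPM with control siRNA (1.69 ± 0.15). SPRR2D (1.68 ± 0.12), SPRR2E (2.10 ± 0.18) and SPRR3 (1.26 ± 0.12) rose as well, and reads of the near-identical SPRR2 genes may be split between copies. PPL, the plakin periplakin that links the envelope to keratin filaments, had 218, 220 and 248 CPM with ATF3 siRNA, against 83.4, 87.6 and 95.1 CPM with control siRNA (1.37 ± 0.07, edgeR adjusted p = 5.89e-09). Its partner EVPL, envoplakin, rose by 0.58 ± 0.08, and CSTA, the envelope protein cystatin A, by 0.60 ± 0.12. FLG, the filaggrin gene of the granular layer, stayed low at 1.52 ± 0.313 CPM with ATF3 siRNA and 0.631 ± 0.211 CPM with control siRNA (1.25 ± 0.30, edgeR adjusted p = 0.00749), and with limma on log2(FPKM + 1) its adjusted p was 0.109. Per length, in FPKM, which also divide by transcript length, SPRR2D averaged 70.7 with ATF3 siRNA and 22.2 with control siRNA, IVL 38.9 and 11.4, and PPL 29.2 and 11.4, each in that order of groups.

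In chromosome order, most rises lay in the middle of the differentiation complex. From FLG to S100A7, genes 5 to 23 in chromosome order among the 30 tested, 17 of 19 rose, the exceptions being CRNN (adjusted p = 0.068) and LCE1B (adjusted p = 0.428). The ends of this stretch were set after the calls were seen, and TCHH and HRNR just before it were not called. Several of its genes were very low with control siRNA, such as SPRR2G (0.10 CPM), S100A12 (0.14 CPM) and LCE3D (0.36 CPM). With a stricter filter on low counts, 11 of 17 tested genes of the whole complex rose and 1 fell. At the ends of the complex the S100 genes S100A10, S100A11, S100A14 and S100A2 were abundant and were not called, S100A16 rose by little (0.24 ± 0.06; adjusted p = 0.0742 without control siRNA library 2), S100A13 rose by 0.35 ± 0.11 (edgeR adjusted p = 0.0382) and S100A6 fell (-0.29 ± 0.07, edgeR adjusted p = 0.00471). S100A13 was still called without ATF3 siRNA library 3 but not without any other of the 6 (adjusted p = 0.0532 to 0.179). PGLYRP3 and PGLYRP4, peptidoglycan recognition proteins that act against bacteria, lie between the SPRR and S100 blocks and rose by 2.98 ± 0.42 and 1.92 ± 0.26.

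**Figure D2:**
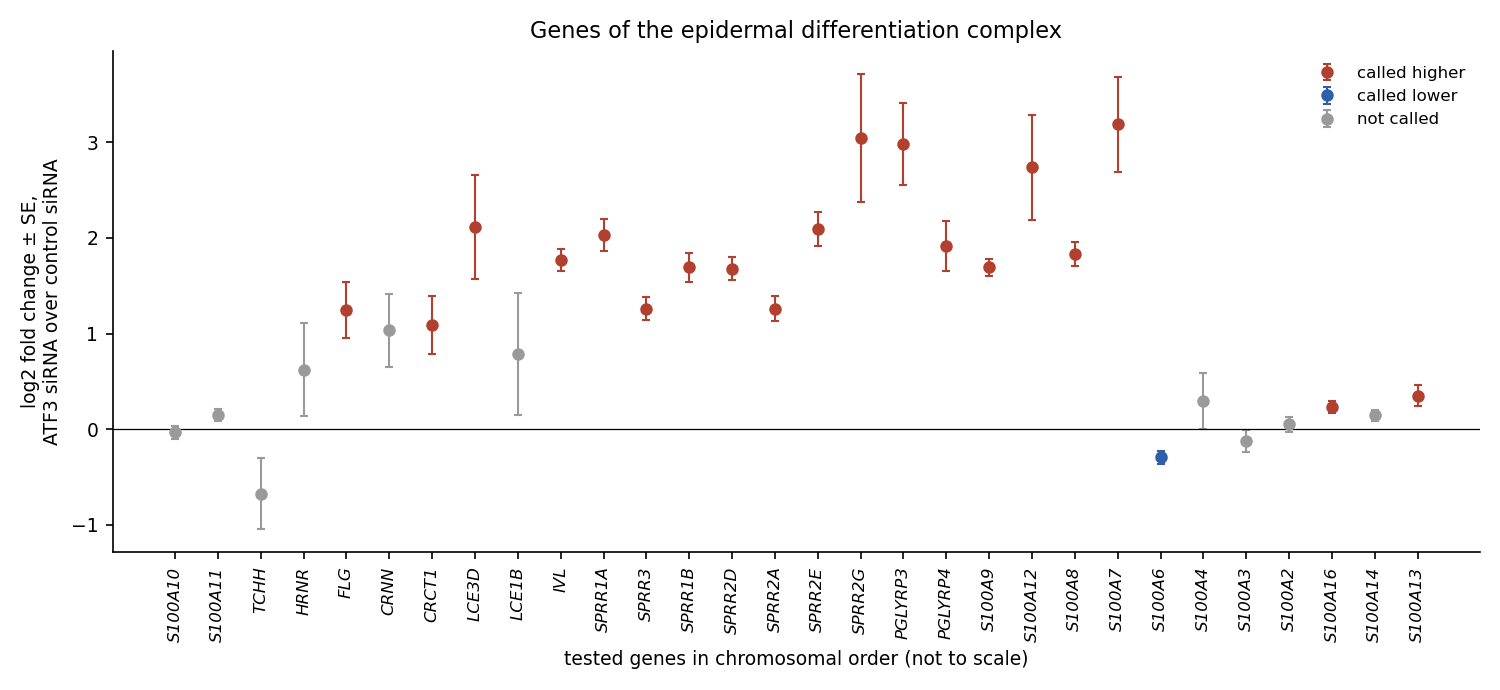
Points give the log2 fold change, ATF3 siRNA over control siRNA, of the 30 tested genes of the epidermal differentiation complex in chromosome order, with lines for the SE from edgeR. Nearly all genes from FLG to S100A7 are called higher (red), as are S100A13 and S100A16, S100A6 beside them is the gene called lower (blue, -0.29), and grey genes are not called.

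The enzymes that act on these precursors rose too. Of 9 genes listed for crosslinking and deimination, 5 were tested. Of these 5, 4 rose and none fell, all 4 at least 2-fold, while 11.2% of all genes rose. The share depends on the filter here too: 4 of 9 rose with no filter and 2 of 3 with a stricter one. TGM1 (chromosome 14, 24249114 to 24264432, minus strand, hg38), the membrane-bound transglutaminase of the envelope, had 63.3, 95.2 and 108 CPM with ATF3 siRNA, against 9.85, 10.1 and 14.7 CPM with control siRNA (2.94 ± 0.19, edgeR adjusted p = 4.49e-08). TGM2, tissue transglutaminase, had 12.9, 12.6 and 13.7 CPM with ATF3 siRNA, against 2.96, 4.50 and 4.71 CPM with control siRNA (1.68 ± 0.17, edgeR adjusted p = 5.05e-06). The groups did not overlap in either gene, although the ATF3 siRNA libraries spread widely for TGM1. PADI1 and PADI2, which convert arginine to citrulline in keratins and filaggrin, rose by 1.35 ± 0.28 and 2.07 ± 0.24.

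Keratins changed in the same libraries. Of 25 tested type I and II keratins, 15 rose and 3 fell, with a median of 0.51. KRT13, a keratin of internal stratified epithelia, had 23.7, 24.3 and 23.6 CPM with ATF3 siRNA, against 5.74, 6.26 and 6.51 CPM with control siRNA (1.95 ± 0.12, edgeR adjusted p = 3.26e-08). Its usual partner KRT4 had 3.32, 5.68 and 4.90 CPM with ATF3 siRNA, against 0.484, 0.243 and 0.744 CPM with control siRNA (3.22 ± 0.48, edgeR adjusted p = 0.000226). KRT78 (2.61 ± 0.42) and KRT23 (2.18 ± 0.21) also rose, at low levels. The wound and stress keratins were far more abundant, with KRT17 at 9111, 9370 and 10430 CPM with ATF3 siRNA, against 4952, 5226 and 5744 CPM with control siRNA (0.86 ± 0.07, edgeR adjusted p = 1.05e-06). KRT16 rose by 1.64 ± 0.12 and KRT6A by 0.38 ± 0.06, with the reservation that KRT6A, KRT6B and KRT6C, like KRT14, KRT16 and KRT17, have close copies. KRT10, the keratin of the spinous layer, was 26.1 ± 4.53 CPM with ATF3 siRNA and 26.99 ± 2.72 CPM with control siRNA (-0.05 ± 0.11, edgeR adjusted p = 0.799). KRT5 of the basal layer was 12800 ± 490 CPM and 11763 ± 853 CPM in the same order (0.12 ± 0.06, edgeR adjusted p = 0.206). The 3 falls were KRT8, KRT18 and KRT75, and none of the 3 was called without ATF3 siRNA library 2 and 1 without control siRNA library 2.

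Of 20 tested kallikreins and epidermal protease inhibitors 6 rose and 1, the membrane protease TMPRSS11E, fell, and TMPRSS11E was not called without ATF3 siRNA library 1 or control siRNA library 1 or 2 (adjusted p = 0.0642 to 0.088). PI3, the elastase inhibitor elafin, had 41.7, 42.5 and 50.1 CPM with ATF3 siRNA, against 11.7, 12.2 and 12.02 CPM with control siRNA (1.90 ± 0.10, edgeR adjusted p = 5.89e-09), and SLPI, another inhibitor of neutrophil elastase, rose by 1.26 ± 0.07. S100A8, which pairs with S100A9 to form the alarmin calprotectin, had 74.5, 73.8 and 61.9 CPM with ATF3 siRNA, against 21.4, 20.2 and 17.4 CPM with control siRNA (1.83 ± 0.13, edgeR adjusted p = 1.37e-07). No list of antimicrobial genes was tested. LCN2, the iron-binding lipocalin that starves bacteria, reached 15.8 ± 2.81 CPM with ATF3 siRNA, against 5.98 ± 0.463 CPM with control siRNA (1.39 ± 0.16). S100A7, psoriasin, was near the limit of detection in control cells, at 0.062 to 0.243 CPM, and had 1.41 to 2.18 CPM with ATF3 siRNA. Of 16 tested S100 genes 7 rose and 1 fell, and of 9 clade B serpins 6 rose and none fell (median 0.53). Leaving out 1 library at a time, 4 or 5 of the 9 serpins rose and none fell. SERPINB2, an inhibitor of plasminogen activators that is also crosslinked into the envelope, had 345, 328 and 280 CPM with ATF3 siRNA, against 186, 161 and 151 CPM with control siRNA (0.94 ± 0.08, edgeR adjusted p = 1.14e-06).

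**Figure D3:**
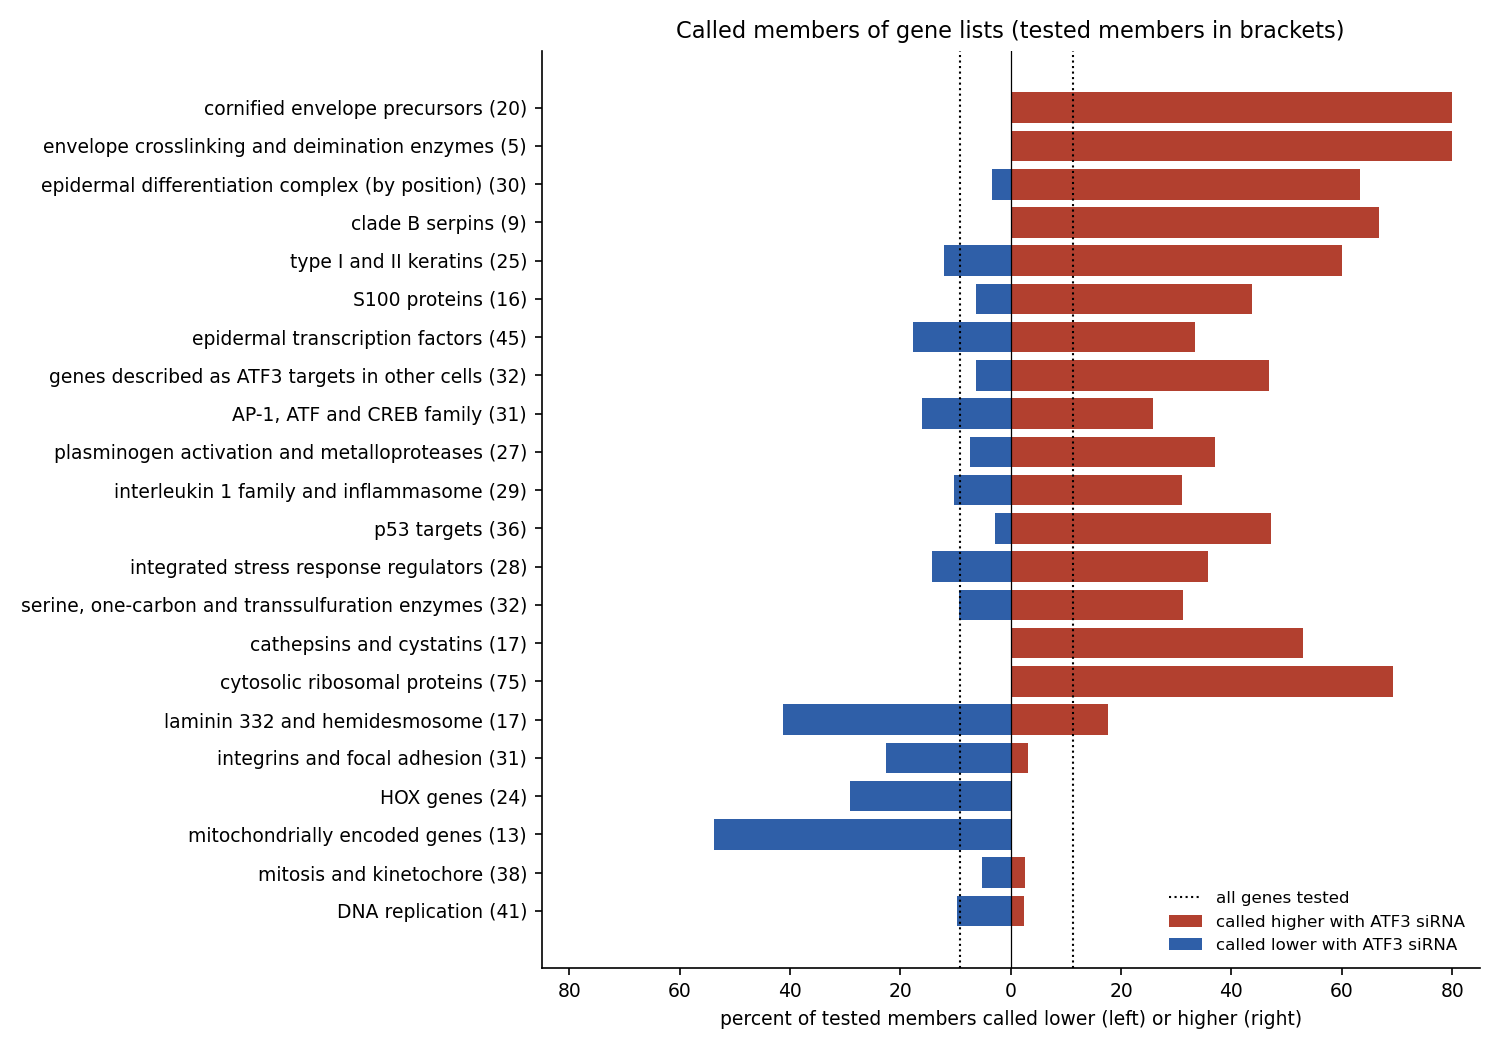
For each gene list, bars to the right give the percent of tested members called higher and bars to the left the percent called lower with ATF3 siRNA against control siRNA at an edgeR adjusted p under 0.05. The background over all genes is 11.2% higher and 9.14% lower, and envelope precursors stand at 80.0% higher and 0 lower.

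Transcription factors of the epidermis moved in both directions, 15 of 45 tested up and 8 down. ZNF750, a zinc finger factor that drives terminal differentiation, had 12.5, 17.0 and 23.5 CPM with ATF3 siRNA, against 5.32, 5.84 and 6.26 CPM with control siRNA (1.60 ± 0.19, edgeR adjusted p = 2.44e-05). OVOL1 (1.03 ± 0.14), ELF3 (1.02 ± 0.20), GRHL3 (0.87 ± 0.08) and KLF4 (0.38 ± 0.09), which act in barrier formation, rose as well. TP63, the master factor of the basal layer, was 330 ± 7.95 CPM with ATF3 siRNA and 345 ± 12.3 CPM with control siRNA (-0.07 ± 0.06, edgeR adjusted p = 0.504). ARID3B, an AT-rich DNA-binding factor, had 18.1, 16.1 and 18.3 CPM with ATF3 siRNA, against 44.6, 45.5 and 40.2 CPM with control siRNA (-1.31 ± 0.08, edgeR adjusted p = 4.31e-08), and its relative ARID3A fell by 0.54 on the log2 scale. Leaving out 1 library at a time, 10 to 17 of 47 tested factors rose and 5 to 8 fell, with 10 rises and 5 falls without control siRNA library 1.

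The relatives of ATF3 moved in both directions. Of 31 tested AP-1, ATF and CREB genes other than ATF3, 8 rose and 5 fell, shares of 25.8% and 16.1%, with a median of 0.02. The falls were ATF7, FOSL1, CREB1, CREB3L2 and BACH2. ATF7, a close relative of ATF2, had 12.8, 12.9 and 10.8 CPM with ATF3 siRNA, against 21.6, 20.7 and 18.4 CPM with control siRNA (-0.73 ± 0.11, edgeR adjusted p = 0.000218). DDIT3, the stress factor CHOP that can pair with ATF3, had 13.4, 16.5 and 15.1 CPM with ATF3 siRNA, against 9.19, 7.24 and 6.88 CPM with control siRNA (0.95 ± 0.13, edgeR adjusted p = 8.16e-05). FOS (0.62 ± 0.12), ATF1 (0.61 ± 0.10) and ATF2 (0.48 ± 0.08) rose. The AP-1 partners JUN (-0.10 ± 0.08, adjusted p = 0.399) and JUNB (0.02 ± 0.09, adjusted p = 0.907) were not called. The count of 5 falls depended on single libraries: it was 2 without ATF3 siRNA library 2 and 3 without ATF3 siRNA library 3 or control siRNA library 2. With a trend of fold change with GC content removed, an alternative chosen after the data were seen, 9 rose and 10 fell.

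Of 32 tested genes described as ATF3 targets in other cells, 15 rose, 2, CCND1 and TNFRSF10B, fell and 15 were not called (46.9% higher and 6.25% lower, median 0.35). This lean to rises was seen against control siRNA only. Against APOE siRNA 10 of the 32 were higher and 8 lower, beside 20.3% and 17.9% of all genes. Against CXCL14 siRNA 11 were higher and 11 lower, beside 28.4% and 25.3%. GDF15, a stress-induced cytokine, had 48.1, 59.1 and 65.3 CPM with ATF3 siRNA, against 19.3, 24.9 and 29.4 CPM with control siRNA (1.23 ± 0.13, edgeR adjusted p = 1.04e-05). ID3, an inhibitor of basic helix-loop-helix factors, was 80.8 ± 4.86 CPM with ATF3 siRNA and 43.2 ± 4.11 CPM with control siRNA (0.90 ± 0.08). The pseudokinase TRIB3 (0.62 ± 0.08), the growth-arrest gene GADD45A (0.62 ± 0.07) and the CDK inhibitor CDKN1A (0.52 ± 0.06) rose. IL6, which ATF3 represses in mouse macrophages, had 2.26, 1.91 and 0.726 CPM with ATF3 siRNA, against 0.242, 0.486 and 0.186 CPM with control siRNA (2.42 ± 0.53, edgeR adjusted p = 0.00418). CCND1 was not called without ATF3 siRNA library 2 (adjusted p = 0.0784) or control siRNA library 2 (adjusted p = 0.0683), which leaves 1 fall.

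Called genes with the full cyclic AMP response element TGACGTCA in their promoter window moved both ways. CHPF, a chondroitin polymerising factor, had 403, 476 and 559 CPM with ATF3 siRNA, against 218, 241 and 276 CPM with control siRNA (0.97 ± 0.12, edgeR adjusted p = 3.02e-05). MED18, a Mediator subunit, had 10.5, 12.8 and 12.8 CPM with ATF3 siRNA, against 24.0, 25.8 and 22.9 CPM with control siRNA, and fell by 1.02 on the log2 scale. The cell adhesion gene NRCAM and the glucose-sensing factor MLXIP fell by 0.92 and 0.68.

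Falls included the cadherin CDH3 and genes that hold keratinocytes to the basement membrane. CDH3 (chromosome 16, 68636189 to 68722616, plus strand, hg38), the P-cadherin of basal cells, had 625, 591 and 639 CPM with ATF3 siRNA, against 1176, 1165 and 1224 CPM with control siRNA (-0.94 ± 0.06, edgeR adjusted p = 2.78e-08). Of 20 tested cadherins, catenins and mesenchymal genes 2, CDH3 and VIM, fell and 2, CDH2 and TAGLN, rose. Among all tested genes 11.2% rose and 9.14% fell, so these counts do not set the list apart. CDH2 was not called without ATF3 siRNA library 1 or 2 or control siRNA library 1 or 2 (adjusted p = 0.0763 to 0.119). Of 13 desmosome genes 3 (DSG3, DSP and PKP1) rose and 2 (DSG2 and PKP2) fell, and leaving out 1 library at a time gave 1 to 5 rises and 0 to 1 falls. Of 17 tight junction genes 4 rose and 4 fell, and 2 fell without ATF3 siRNA library 2 or control siRNA library 1. Of 31 integrin and focal adhesion genes 7 fell and 1, the adaptor TLN1, rose, shares of 22.6% and 3.23%, and 2 rose without ATF3 siRNA library 3. With the GC trend removed, 12 of the 31 fell. With a trend of fold change with gene span removed, also chosen after the data were seen, 5 fell. ITGA2, the collagen-binding α2 integrin, had 304, 251 and 240 CPM with ATF3 siRNA, against 494, 409 and 362 CPM with control siRNA (-0.67 ± 0.11, edgeR adjusted p = 0.000642). ITGB6 (-0.48 ± 0.08) and ITGA6 (-0.32 ± 0.07) fell as well. Of 17 laminin and hemidesmosome genes 7 fell and 3, BCAM, CD151 and NID1, rose, and 4 fell without ATF3 siRNA library 2. With the GC trend removed 9 fell and 3 rose, and with the gene span trend removed 5 fell and 4 rose. NID1 was not called without ATF3 siRNA library 2 or 3 or control siRNA library 1 or 2 (adjusted p = 0.115 to 0.141). COL17A1, the collagen of the hemidesmosome, had 3272, 2877 and 3160 CPM with ATF3 siRNA, against 3704, 3710 and 3760 CPM with control siRNA (-0.26 ± 0.06, edgeR adjusted p = 0.0044), and the plakin DST fell by 0.47 on the log2 scale.

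Proteolysis and coagulation genes included some of the larger changes. Of 27 tested genes of plasminogen activation and metalloproteases, 10 rose and 2 fell, and 4 fell with the GC trend removed. MMP9, a gelatinase, had 42.0, 31.3 and 39.4 CPM with ATF3 siRNA, against 9.97, 10.1 and 9.98 CPM with control siRNA (1.91 ± 0.12, edgeR adjusted p = 4.36e-08). MMP28, an epidermal metalloprotease, rose by 1.69 ± 0.18, and the inhibitors TIMP2 and TIMP3 by 0.81 ± 0.08 and 0.75 ± 0.10. F3, tissue factor, the cell-surface trigger of clotting, had 1361, 1289 and 1213 CPM with ATF3 siRNA, against 806, 797 and 777 CPM with control siRNA (0.70 ± 0.06, edgeR adjusted p = 1.04e-06). THBD, the anticoagulant thrombomodulin, rose by 0.71 ± 0.08. The 2 falls were ADAMTS1 (-0.65 ± 0.08) and TFPI2, a protease inhibitor, with 98.8, 83.6 and 80.6 CPM with ATF3 siRNA, against 163, 150 and 158 CPM with control siRNA (-0.84 ± 0.08).

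In the interleukin 1 family the receptor antagonists rose beside the agonists. Of 29 tested genes of the family and the inflammasome, 9 rose and 3 fell, and 1 fell without control siRNA library 1. IL1RN, the interleukin 1 receptor antagonist, had 27.2, 33.7 and 40.3 CPM with ATF3 siRNA, against 11.4, 12.8 and 13.2 CPM with control siRNA (1.43 ± 0.13, edgeR adjusted p = 1.51e-06), and IL36RN, the antagonist of the interleukin 36 receptor, rose by 1.30 ± 0.13. Of the agonists, IL36G rose by 1.46 ± 0.23 and IL1A had 326, 312 and 252 CPM with ATF3 siRNA, against 184, 172 and 159 CPM with control siRNA (0.79 ± 0.09, edgeR adjusted p = 1.15e-05). NLRP3, the inflammasome sensor, fell by 0.86 on the log2 scale (edgeR adjusted p = 0.00489), and the other two falls were IL1RAP and IL1RL1. IL1RAP was not called without ATF3 siRNA library 1 or control siRNA library 1 or 2 (adjusted p = 0.0595 to 0.0691), nor IL1RL1 without ATF3 siRNA library 2 or 3 or control siRNA library 1 or 3 (adjusted p = 0.0832 to 0.126). CXCL10, a chemokine for T cells, had 19.8, 22.2 and 20.3 CPM with ATF3 siRNA, against 6.41, 7.72 and 10.6 CPM with control siRNA (1.33). Counts of interferon-stimulated genes rested on single libraries: 10 of 48 rose and 2, IFITM2 and IFITM3, fell, but 21 rose without control siRNA library 3, 4 without ATF3 siRNA library 3 and 5 without ATF3 siRNA library 2 or control siRNA library 1 or 2, while IFITM3 was not called without ATF3 siRNA library 1 or 2 or control siRNA library 2 or 3 (adjusted p = 0.0608 to 0.0987). ISG15 ran from 437 to 1055 CPM among the control libraries.

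Amino acid and stress-response genes rose in part. ASS1, which makes argininosuccinate for arginine synthesis, had 67.2, 58.6 and 61.6 CPM with ATF3 siRNA, against 16.9, 17.9 and 19.96 CPM with control siRNA (1.78 ± 0.08, edgeR adjusted p = 2.5e-09). Of 32 genes of serine and folate-linked metabolism 10 rose and 3, GLUL, MAT2A and MTHFD2L, fell, and GLUL was not called without ATF3 siRNA library 2 (adjusted p = 0.0736) or control siRNA library 3 (adjusted p = 0.0623). The serine pathway enzymes PHGDH (0.54 ± 0.07), PSAT1 (0.66 ± 0.08) and PSPH (0.77 ± 0.07) and the proline enzyme PYCR1 (0.83 ± 0.08) were among the rises. STC2, a secreted glycoprotein of the stress response, had 161, 135 and 133 CPM with ATF3 siRNA, against 59.6 CPM in each control library (1.26 ± 0.08, edgeR adjusted p = 4.03e-08). Of 36 p53 targets 17 rose and 1, TNFRSF10B, fell (47.2% and 2.78%), with TP53INP1 (1.10 ± 0.10) and RRM2B (0.69 ± 0.07) among the rises. Of 17 cathepsins and cystatins 9 rose and none fell, led by CTSC, a protease that activates serine proteases, at 759 ± 14.6 CPM with ATF3 siRNA and 490 ± 24.5 CPM with control siRNA (0.63 ± 0.06).

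Of 38 tested genes of acetyl-CoA, fatty acid and glyceride synthesis 9 rose and 5, FADS3, ACSL4, LPIN1, LPIN2 and MGLL, fell. Without control siRNA library 1, 5 rose, and with the GC trend removed 9 fell. Of 36 tested cholesterol and sterol genes 9 rose and 4, INSIG1, INSIG2, SOAT1 and NCEH1, fell, and 5 rose without control siRNA library 2. No list of polyamine genes was tested, and those given here are single genes named for their changes. SRM, spermidine synthase, had 51.8, 57.5 and 66.9 CPM with ATF3 siRNA, against 126, 128 and 157 CPM with control siRNA (-1.22 ± 0.12, edgeR adjusted p = 4.22e-06). The rate-limiting polyamine enzymes ODC1 (-0.55 ± 0.09) and AMD1 (-0.38 ± 0.06) and the catabolic SAT1 (-0.35 ± 0.07) fell. ACLY, which makes cytosolic acetyl-CoA, had 742, 666 and 745 CPM with ATF3 siRNA, against 243, 238 and 250 CPM with control siRNA (1.56 ± 0.06, edgeR adjusted p = 3.78e-10). INSIG1, which holds sterol-regulated factors in the endoplasmic reticulum, had 153, 150 and 159 CPM with ATF3 siRNA, against 356, 343 and 337 CPM with control siRNA (-1.16 ± 0.06, edgeR adjusted p = 5.89e-09). Among retinoid genes, CRABP2, a carrier of retinoic acid, had 14.7, 18.1 and 19.2 CPM with ATF3 siRNA, against 3.08, 3.47 and 4.28 CPM with control siRNA (2.26 ± 0.15, edgeR adjusted p = 4.31e-08).

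Proliferation genes were mostly not called, as were genes as a whole, of which 11.2% rose and 9.14% fell. Among 38 mitosis genes there was 1 rise (CENPK, 2.63%) and 2 falls (BUB1 and PTTG1, 5.26%). Among 41 DNA replication genes there was 1 rise (PCNA, 2.44%) and 4 falls (MCM10, CDC6, POLE2 and CLSPN, 9.76%). Of these 8, MCM10 alone was still called whichever library was left out, and 7 mitosis genes fell without ATF3 siRNA library 1. Some groups moved by small steps. Of 75 cytosolic ribosomal protein genes, 52 rose and none fell, with a median of 0.26, and 23 rose once a trend of fold change with gene span was removed, an alternative chosen after the data were seen. Of 13 mitochondrially encoded genes 7 fell and none rose, and 1 fell without ATF3 siRNA library 2 or control siRNA library 1. Without ATF3 siRNA library 3 it was 2, and without control siRNA library 2 it was 4. Of 24 HOX genes 7 fell and none rose, and 3 fell without ATF3 siRNA library 1 or control siRNA library 2.

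Calls also moved with the size and base composition of genes. Among tested protein-coding genes, 21.4% rose and 4.74% fell in the bin with the shortest spans (the lowest of 5 equal bins), of at most 10561 bases, and 5.01% rose and 20% fell in the bin with the longest, of at least 96191 bases. By GC content, 6.12% rose and 12.5% fell in the lowest of 5 bins, and 19.9% rose and 3.91% fell in the highest. With the span trend removed 16 of the 20 envelope precursors rose and none fell (median 1.32), and with the GC trend removed 16 rose and none fell (median 1.26).

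**Figure D4:**
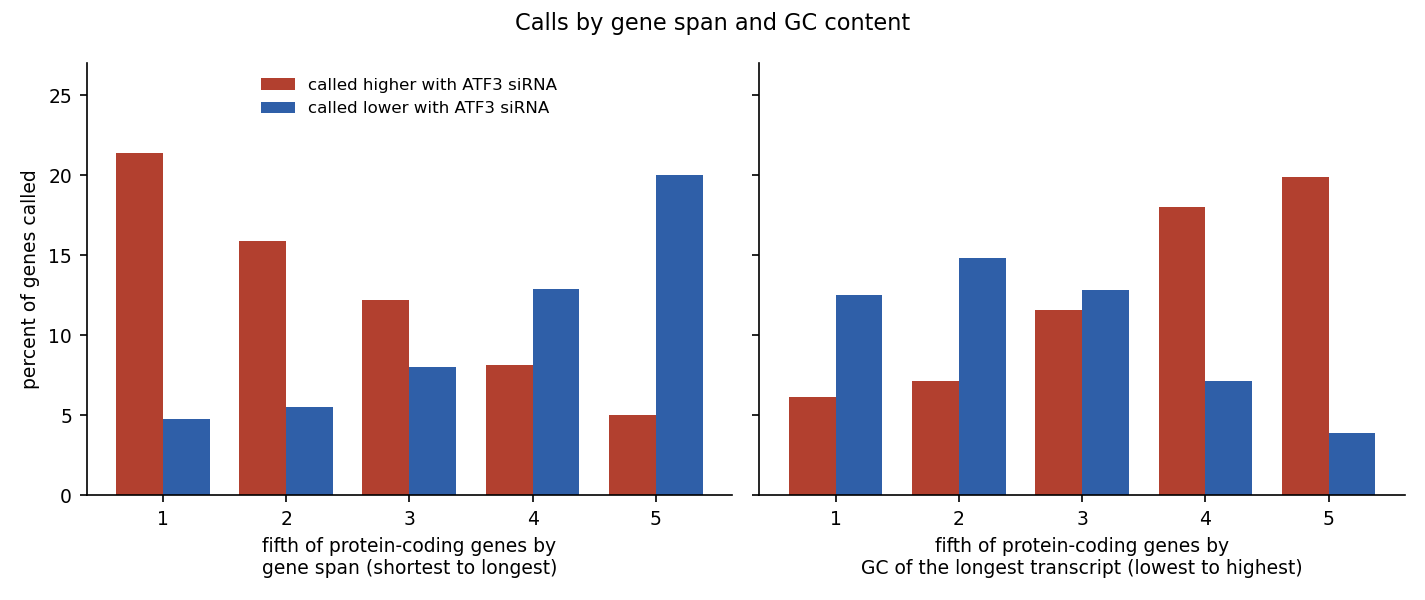
Bars give the percent of tested protein-coding genes called higher (red) and lower (blue) with ATF3 siRNA, in 5 equal bins by gene span on the left and by GC content of the longest transcript on the right, from lowest to highest. Rises go from 21.4% among the shortest genes to 5.01% among the longest, and falls from 4.74% to 20%.

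The ATF3 siRNA libraries also differed from those with the other siRNAs. Against APOE siRNA 3027 genes were higher (20.3%) and 2678 lower (17.9%), and against CXCL14 siRNA 4239 were higher (28.4%) and 3769 lower (25.3%). These comparisons share the ATF3 siRNA libraries, so their values are given side by side and not as independent support. Of the 20 envelope precursors, 6 were higher and 6 lower than with APOE siRNA, and 15 were higher and none lower than with CXCL14 siRNA. IVL was 85.3 ± 10.9 CPM with ATF3 siRNA, 68.4 ± 8.06 with APOE siRNA, 11.8 ± 0.788 with CXCL14 siRNA and 25.0 ± 3.12 with control siRNA. SBSN was higher with APOE siRNA, at 11.7 ± 1.83 CPM, than with ATF3 siRNA, at 5.55 ± 0.401 CPM. Of the 36 p53 targets, 5 were higher and 19 lower than with APOE siRNA, and 4 higher and 19 lower than with CXCL14 siRNA.

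Some genes stood apart in the ATF3 siRNA libraries from all 3 other groups. MMP9 was 37.5 ± 5.6 CPM with ATF3 siRNA, 4.71 ± 0.737 with APOE siRNA, 0.206 ± 0.0649 with CXCL14 siRNA and 10.02 ± 0.0677 with control siRNA. APOBEC3A, a cytidine deaminase, was higher than with control siRNA by 1.83, than with APOE siRNA by 2.12 and than with CXCL14 siRNA by 2.02 on the log2 scale, and MAB21L4 by 1.5, 1.45 and 2.04. WBP1L was 36.0 ± 4.45 CPM with ATF3 siRNA, 92.4 ± 7.12 with APOE siRNA, 100 ± 5.86 with CXCL14 siRNA and 85.4 ± 4.44 with control siRNA. RNF44, a RING finger gene, differed from control siRNA by -1.12, from APOE siRNA by -1.78 and from CXCL14 siRNA by -1.67, and CDH3 by -0.94, -0.83 and -0.79. SRM differed by -1.22, -1.52 and -1.18, and ATF7 by -0.73, -0.80 and -0.78, in the same order. FNBP1L, a membrane-bending protein of endocytosis, differed by -1.38, -0.74 and -0.86.

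For other genes the level with ATF3 siRNA lay near that with another siRNA, although an adjusted p above 0.05 does not show equal levels. ACLY was 717 ± 45 CPM with ATF3 siRNA, 761 ± 19.4 with APOE siRNA, 725 ± 20.9 with CXCL14 siRNA and 244 ± 5.86 with control siRNA, so that the control libraries lay apart. ATF3 siRNA differed from APOE siRNA by -0.09 ± 0.06 (edgeR adjusted p = 0.279) and from CXCL14 siRNA by -0.02 ± 0.06 (edgeR adjusted p = 0.851). BCAM, a laminin receptor, was 35.8 ± 2.67, 34.7 ± 5.04, 34.4 ± 2.43 and 14.03 ± 2.63 CPM in that order of groups. GNAQ, a G protein α subunit, was 47.7 ± 5.07 CPM with ATF3 siRNA and 43.5 ± 0.765 CPM with CXCL14 siRNA (0.13 ± 0.08, edgeR adjusted p = 0.162), against 98.6 ± 1.71 CPM with APOE siRNA and 120 ± 7.53 CPM with control siRNA. JKAMP, a membrane protein of the endoplasmic reticulum, was 13.8 ± 1.89 CPM with ATF3 siRNA and 13.3 ± 2.14 CPM with CXCL14 siRNA, against 31.3 ± 0.665 CPM with APOE siRNA and 32.2 ± 2.39 CPM with control siRNA.

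**Figure D5:**
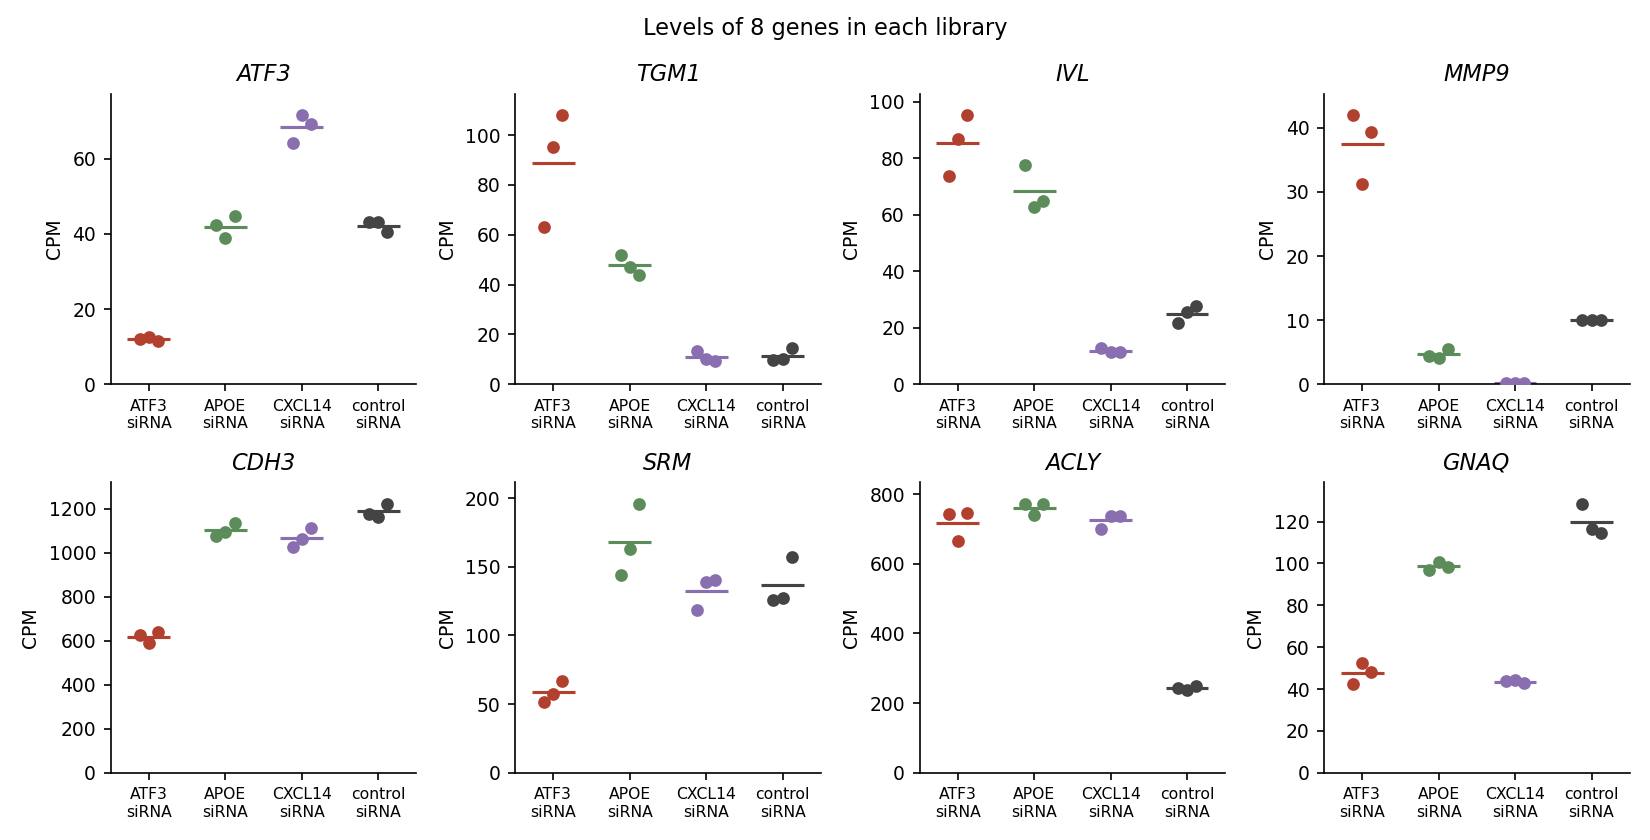
Each panel gives 1 gene, with a point for each library and a horizontal line for the mean of 3 libraries in CPM, for ATF3, APOE, CXCL14 and control siRNA from left to right. MMP9, CDH3 and SRM set the ATF3 siRNA libraries apart from the other 3 groups, ACLY sets the control libraries apart, and GNAQ is low with both ATF3 and CXCL14 siRNA.

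Calls were also counted for genes that do not code for protein. Of 478 tested lincRNAs 21 rose (4.39%) and 18 fell (3.77%), and of 606 antisense genes 16 rose (2.64%) and 13 fell (2.15%). Of 128 processed transcripts 8 rose (6.25%) and 9 fell (7.03%). Among all tested genes with a mean of 0 to 1 CPM 2.91% rose and 1.56% fell, and nothing about these classes is read from their shares. LINC00520 rose by 1.26 on the log2 scale, and FLJ42351 fell by 1.65. No source used here says whether counting used strand, so values of antisense and overlapping genes are uncertain.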

How the data were processed

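The authors deposited raw read counts per gene and FPKM per gene and library. The tools listed in the submitters' processing notes are featureCounts 1.5.0-p3 and HISAT2 2.0.5, with hg38 as the build, and the annotation and strand setting are not given in the sources used here. Library columns were mapped to samples by target and replicate number, and 0 columns were left unmapped. The deposited counts were filtered with filterByExpr, scaled by TMM and fitted for all 12 libraries with 1 term per group and no replicate term, by the quasi-likelihood test of edgeR 4.0.16 in R 4.3.3. The deposited FPKM, which divide by gene length, served for levels between genes and for an alternative with limma 3.58.1. SE is the log2 fold change divided by the square root of F. Tested on simulated data, 86.5% of 200 genes changed 2-fold among 14393 were recovered and 9 others were called. Depth limits low genes: 3 counts, the floor for a count of 0, equal 0.138 to 0.186 CPM in the 6 libraries, which covers counting error only.

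The comparison, the 60 gene lists and the 6 marker lists were chosen with earlier results of these data known. Genes were named by a rule: the target, the 15 largest called rises and falls among protein-coding genes with at least 5 CPM and non-overlapping groups, up to 4 called members per list by smallest adjusted p (or the 2 most abundant where none was called), the largest changes of other biotypes, the most abundant called genes, those called the same way against all 3 other groups, and called genes with TGACGTCA in the promoter. The rule gave 290 genes, of which the text gives a part. A further 90 were picked after their values were seen, among them SPRR1B, SPRR3, EVPL, CSTA, FLG, KRT4, KRT78, KRT5, KRT10, TP63, OVOL1, ELF3, KLF4, FOS, JUN, JUNB, ODC1, AMD1, SAT1, MMP28, TIMP3, THBD, ADAMTS1, NLRP3, PHGDH, ITGA6, PGLYRP3 and PGLYRP4, and the genes named because few of their list moved. Promoters are from the RefSeq table of GRCh38.p14, which holds 10898 of the tested genes. Alternatives included limma-voom, DESeq2 1.42.0 (Wald), other scalings and filters, a replicate block and leaving out each library.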

Additional observations from a re-analysis of the deposited data

How the results depend on the processing

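ATF3 stayed lower with ATF3 siRNA in all 18 alternatives, with log2 fold changes from -1.85 to -1.53. Leaving out 1 library at a time gave 1057 to 1523 genes higher and 859 to 1258 lower. The lowest counts, 1057 and 859, came without control siRNA replicate 1, where 61.2% of the rises and 61% of the falls were still called, and fewer libraries were then compared. The other alternatives gave 1244 to 2198 higher and 1184 to 1940 lower. With a replicate block 2198 rose and 1940 fell, and 99.9% of the calls in each direction were still made. Same-numbered libraries deviated together weakly across genes (r = 0.146, 0.0214 and 0.230), beside -0.202 to 0.0627 for libraries with different numbers. The labels give replicate numbers but no pairing, so the main test took none. Whether the numbers pair libraries is not known. Rises made up 48.8% of the calls with no filter and 44% with library size alone. DESeq2's Wald test called 1569 higher and 1415 lower. With the GC trend removed, 84.1% of the rises and 88.2% of the falls were still called, and with the gene span trend removed 75.6% and 73.7%, both alternatives chosen after seeing the data. Of 358 called genes named beside ATF3, 269 were called in every alternative that tested them and 89 lost the call in at least 1 (77 of them when 1 library was left out). None of the 358 reversed. A gene that an alternative's filter removed was not counted as lost there. The stricter filter, for example, tested 12 of the 20 envelope precursors and 3 of the 5 crosslinking and deimination enzymes. Of 2448 list counts, 2097 stayed within 1.5 times. Low counts limit genes under about 1 CPM, such as S100A12 and SPRR2G.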
